A study of Mus musculus with 10 samples.

Results

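Cytochrome P450 genes were compared between mouse intestinal organoids that lack IκBα (KO) and wild-type organoids (WT). The question named by the study's title is whether this loss gives intestinal stem cells fetal features. Organoids are small epithelia grown in culture from intestinal tissue, and IκBα, encoded by Nfkbia, is the inhibitor that holds NF-kB transcription factors in the cytoplasm. Both groups carry the mark P6 in their labels, which was not interpreted, and each held 5 samples with 1 array per sample; the labels do not tell which allele was used, what drives it, or if replicates stem from different animals or cultures. All p-values thus measure the spread among the samples at hand, which may be technical. Members were all gene symbols of the array's probe-to-gene table made of Cyp, a number, a letter or letters and a number, with Cyp51 left out; Por, the electron donor of microsomal P450s, belonged to the rule but is unnamed here and was not analysed, and neither was Cyp4v3. This gave 90 genes of 19505 with a name, each with 1 probe set. A further 9 P450 symbols fell outside the rule: Cyp51, 3 pseudogene symbols and 5 symbols that end in a letter.

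P450s are haem enzymes, most of them fed with electrons by Por, that insert oxygen into lipophilic molecules. Those of families CYP1 to CYP3 mainly act on drugs, plant compounds and, within CYP2, on polyunsaturated fatty acids; CYP4 enzymes oxidise the far end of fatty acids, leukotrienes and the side chains of vitamins E and K; the remaining families serve bile acids, steroid hormones, vitamin D and retinoic acid. In the small intestine the drug-oxidising members sit in the endoplasmic reticulum of absorptive enterocytes, where they meet swallowed compounds before the liver does, and the nuclear receptors PXR and CAR and the aryl hydrocarbon receptor switch many of them on.

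Levels are log2 array signals as deposited, a change is the KO mean minus the WT mean on that scale, means are given ± SD with n = 5 arrays in each group, and a gene passed when limma's adjusted p was under 0.05. Negative control probe sets had medians of 4.30 to 5.10 in the 10 arrays, with 95th percentiles of 7.17 to 7.77; a group mean at or below 5.10 is called near background here, and a change measured against such a mean is a lower bound in size. Nfkbia stood at 5.06 ± 0.31 in KO and 9.19 ± 0.38 in WT, with all KO arrays below all WT arrays (limma, adjusted p = 2.81e-08); which stretch of the gene was removed is not stated in the labels. The Y-linked genes Eif2s3y, Uty and Kdm5d fell as well, with changes of -5.20, -4.47 and -2.42, all 3 without overlap of the groups, so a difference in the sex of the source cells and the genotype cannot be told apart in any comparison below. A set of 8 spike-in control probe sets had a median change of -0.52, and the largest was 0.85 in size, which several of the smaller changes below do not exceed. Another 63 spike-in control probe sets had a median change of -0.12, and the largest was 0.55 in size. The labelled tissue was borne out in WT by markers of absorptive enterocytes, such as Sis at 11.99 and Vil1 at 11.14. In KO 11 of 11 such markers fell, where 11.7% of all probe sets did, with a median change of -6.14. Of these markers 3 were near background in KO, and Vil1, at 10.11 in KO, was the least changed (-1.03).

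More P450 genes fell than rose in the KO organoids, and all that fell in this fit belonged to families CYP2, CYP3 and CYP4. Of the 90 genes 38 fell, 6 rose and 46 did not pass; 48.9% passed, against 26.7% of all 19572 named probe sets. Over all these probe sets 11.7% fell and 15.0% rose, where 42.2% and 6.67% of the P450 genes did. The KO and WT values did not overlap for 40 of the 90 genes, or 44.4%, against 21.4% of all probe sets. 30 genes fell by over 2-fold and 10 by over 8-fold, where 4.87% and 1.22% of all probe sets did so; 3 rose by over 2-fold, which 6.66% of all probe sets did. The median change was -0.23 over the P450 genes and -0.01 over all probe sets. 28 of the 90 were near background in both groups, and 5 of these passed. A further 18 were near background in KO alone and 3 in WT alone. Some genes that fell also had both group means below the negative controls' 95th percentiles of 7.17 to 7.77. Examples are Cyp2b9, Cyp2c37 and Cyp3a59, at 6.34, 6.53 and 6.71 in WT.

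By family, 26 of 47 CYP2 genes fell and 1 rose, 6 of 7 CYP3 genes fell, and 6 of 16 CYP4 genes fell and 1 rose. Of 3 CYP1 genes 1 rose, and of the 17 genes in families CYP7 to CYP46 3 rose and 14 did not pass. Median changes were -2.52 for CYP3, -0.89 for CYP2, -0.65 for CYP4, -0.17 for CYP1 and 0.03 for the others; differences between families were not tested, since genes of one family share sequence and are not replicates. Within CYP2, by subfamily, all 14 measured Cyp2c and all 5 measured Cyp2b genes fell. Of the others, 2 of 8 Cyp2d and 3 of 7 Cyp2j genes fell, 1 Cyp2j gene rose, and the 4 Cyp2a genes did not pass. The plot of changes by family shows the large decreases within 3 families beside families CYP7 to CYP46, where no gene fell.

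**Figure D1:**
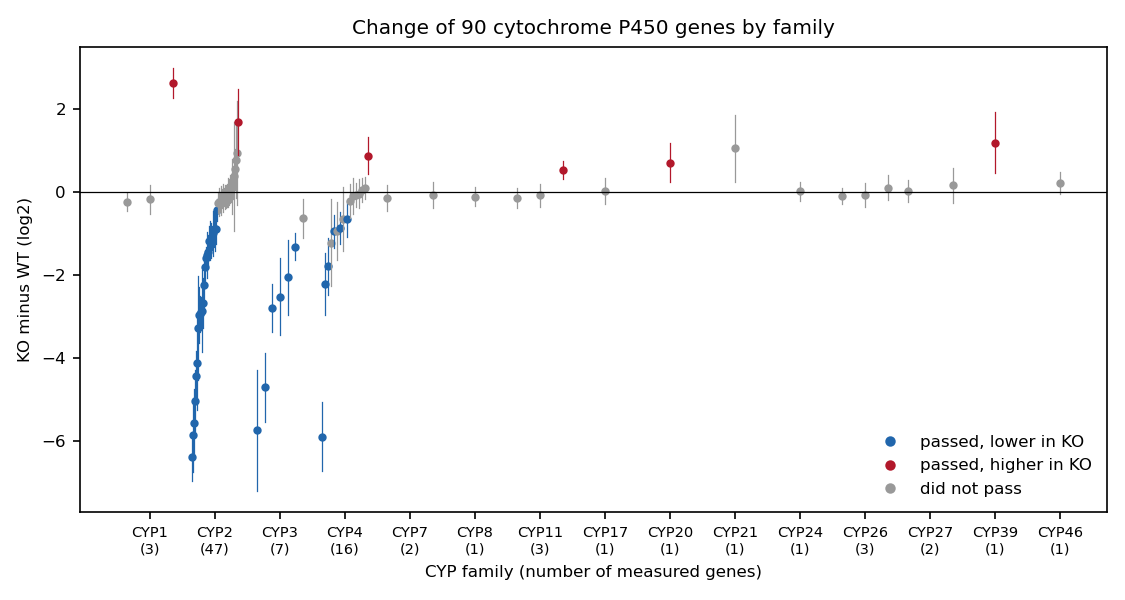
Change (KO minus WT, log2) of each of the 90 P450 genes, sorted within its family; points are estimates, bars 95% confidence intervals of the limma fit, and numbers in brackets count the genes. CYP2, CYP3 and CYP4 reach down to -6.39, -5.74 and -5.90, while CYP7 to CYP46 lie between -0.14 and 1.202. Except for Cyp20a1 and Cyp39a1, WT means of CYP7 to CYP46 were at most 6.16, with little room for a decrease.

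The Cyp2c genes, whose enzymes turn arachidonic and linoleic acid into epoxides and hydroxy acids and also oxidise drugs, all fell as far as measured. All 14 passed, with changes of -6.39 to -0.42, and 13 of them had no overlap between the groups. Values below are given in the order of replicates 1 to 5. Cyp2c66 stood at 5.02, 4.59, 5.10, 6.14 and 5.08 in KO and at 11.51, 11.69, 11.05, 12.05 and 11.60 in WT. Every WT array was above every KO array; the change was -6.39 (SE 0.26; limma, adjusted p = 7.48e-09), or 84.0-fold, the largest change of any member in this fit. Cyp2c65 measured 4.84, 5.41, 5.73, 7.35 and 5.81 in KO and 11.16, 11.50, 11.08, 11.88 and 11.35 in WT. This next gene along the chromosome changed by -5.57 (SE 0.38; limma, adjusted p = 5.16e-07), with KO replicate 4 the highest of the KO arrays in both genes. Cyp2c55 stood at 4.32, 3.78, 3.64, 5.32 and 4.12 in KO and at 10.06, 8.93, 8.91, 9.61 and 8.80 in WT. Cyp2c55, which makes hydroxy acids from arachidonic acid, changed by -5.03 (SE 0.33; limma, adjusted p = 4.26e-07); unlike in Cyp2c66 and Cyp2c65, WT replicate 1 was the highest of WT.

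Cyp2c68 stood at 4.85, 4.46, 4.88, 5.24 and 5.49 in KO and at 8.81, 9.81, 8.87, 10.07 and 9.47 in WT. The groups were far apart at -4.42 (SE 0.27; limma, adjusted p = 1.96e-07). Cyp2c38 stood at 4.08, 4.60, 4.57, 4.12 and 4.26 in KO and at 6.49, 9.14, 7.67, 9.75 and 9.20 in WT. Cyp2c38, an arachidonic acid epoxygenase, was tight in KO and spread in WT, where replicate 1 was lowest; it changed by -4.12 (SE 0.52; limma, adjusted p = 8.57e-05). Cyp2c67 stood at 4.34, 4.23, 4.16, 4.38 and 4.45 in KO and at 6.75, 7.51, 6.78, 7.80 and 7.39 in WT. The change was -2.93 (SE 0.19; limma, adjusted p = 4.44e-07), again without overlap. Cyp2c70 stood at 4.52, 4.57, 4.47, 4.44 and 4.50 in KO and at 7.44, 7.26, 7.58, 7.91 and 6.82 in WT. Cyp2c70, which makes the muricholic acids that set mouse bile apart from human bile, changed by -2.90 (SE 0.17; limma, adjusted p = 1.57e-07) and was near background on every KO array.

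Cyp2c23 stood at 4.75, 4.58, 4.71, 5.03 and 4.70 in KO and at 6.15, 8.18, 6.89, 9.22 and 7.61 in WT. WT spanned 6.15 to 9.22 and KO only 4.58 to 5.03; the change was -2.86 (SE 0.45; limma, adjusted p = 0.000546). Cyp2c69 stood at 3.80, 3.77, 3.80, 3.93 and 3.96 in KO and at 5.09, 5.84, 5.40, 6.22 and 5.74 in WT. It changed by -1.81 (SE 0.18; limma, adjusted p = 1.56e-05). Cyp2c37 stood at 4.93, 5.21, 4.81, 4.96 and 5.23 in KO and at 5.88, 6.92, 6.01, 6.48 and 7.37 in WT. It changed by -1.51 (SE 0.26; limma, adjusted p = 0.000895), and as for Cyp2c69 all WT arrays lay above all KO arrays. The smaller changes were -1.43 for Cyp2c50, -1.10 for Cyp2c40, -0.89 for Cyp2c39 and -0.42 for Cyp2c54; the last 3 were near background in both groups, and Cyp2c39 was the one gene of the subfamily whose groups overlapped. Cyp2c54 lost its call when any 1 of KO replicates 3 and 4 and WT replicates 2 and 4 was left out (limma, adjusted p = 0.0504 to 0.0614). Cyp2c genes are near copies of each other, and whether probe sets of the dimmer ones pick up RNA of their brighter neighbours was not tested.

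RefSeq start-site windows (GRCm38.p6), 250 bases before to 50 after each start, were matched for 69 of the 90 genes. The windows of 3 genes that fell are shown for a run of letters they share, and that of Cyp1b1, which rose, for comparison; capitals mark CAAAGTCC, the first 8 letters of a known binding site of the enterocyte nuclear receptors HNF4A and HNF4G, in Cyp2c65, Cyp2c66 and Cyp3a11, and the reverse complement of GCGTG, the core to which the aryl hydrocarbon receptor binds, in Cyp1b1. Cyp2c65 lies at chr19:39060756-39061055, plus strand, Cyp2c66 at chr19:39113648-39113947, plus strand, Cyp3a11 at chr5:145879805-145880104, minus strand and Cyp1b1 at chr17:79715012-79715311, minus strand, and each is written 5′ to 3′ on its gene's strand.
Cyp2c65: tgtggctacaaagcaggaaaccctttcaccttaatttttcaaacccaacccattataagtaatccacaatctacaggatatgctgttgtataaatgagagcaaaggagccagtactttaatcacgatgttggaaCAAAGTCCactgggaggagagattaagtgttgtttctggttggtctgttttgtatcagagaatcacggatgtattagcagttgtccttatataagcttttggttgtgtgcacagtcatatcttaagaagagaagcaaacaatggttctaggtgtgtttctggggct
Cyp2c66: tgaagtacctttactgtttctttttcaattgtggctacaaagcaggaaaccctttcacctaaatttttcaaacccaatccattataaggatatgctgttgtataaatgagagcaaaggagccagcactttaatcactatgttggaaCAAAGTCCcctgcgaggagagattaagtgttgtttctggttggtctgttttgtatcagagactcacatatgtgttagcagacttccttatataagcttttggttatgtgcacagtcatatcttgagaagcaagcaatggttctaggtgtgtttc
Cyp3a11: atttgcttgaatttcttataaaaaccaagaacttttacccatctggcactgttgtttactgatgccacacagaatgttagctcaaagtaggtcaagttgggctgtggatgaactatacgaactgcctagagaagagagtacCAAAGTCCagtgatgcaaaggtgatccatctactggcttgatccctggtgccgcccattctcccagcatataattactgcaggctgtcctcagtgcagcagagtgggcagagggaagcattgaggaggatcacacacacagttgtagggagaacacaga
Cyp1b1: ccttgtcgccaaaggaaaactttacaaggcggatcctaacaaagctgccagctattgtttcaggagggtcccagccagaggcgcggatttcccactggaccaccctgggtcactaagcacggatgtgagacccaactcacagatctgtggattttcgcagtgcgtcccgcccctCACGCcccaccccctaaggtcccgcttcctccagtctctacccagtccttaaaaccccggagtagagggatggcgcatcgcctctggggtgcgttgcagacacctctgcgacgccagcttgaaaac

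The windows of Cyp2c65 and Cyp2c66 were identical at 256 aligned positions and differed at 15, or 94.5% identity over the aligned letters, with 58 further positions that are gaps in 1 of them. The 9-letter form CAAAGTCCA, searched on both strands, was found for 9 of the 69 genes, or 13.0%: for 7 of the 35 matched genes that fell, which were Cyp2c40, Cyp2c65, Cyp2c67, Cyp2c68, Cyp2c69, Cyp2c70 and Cyp3a11, and for 2 of the 30 that did not pass, Cyp3a16 and Cyp8b1; of all 27025 genes with a window 0.555% held it, and of all windows 0.475%. The 8-letter form, which contains every match of the longer one, was found for 9 of 35 genes that fell, with Cyp2c66 and Cyp4f18 added, for 4 of 30 that did not pass, and in 1.63% of all genes. GCGTG was found for 15 of 69 matched P450 genes, Cyp1a1 and Cyp1b1 included, and in 35.2% of all genes. By call, these were 6 of 35 genes that fell, 2 of 4 that rose and 7 of 30 that did not pass. AGATAA, the GATA core, was found for 9 of 35 genes that fell and for 5 of 30 that did not pass, against 12.7% of all genes. The shares over all genes leave out the windows of 1 chromosome, which holds no member. A 10-letter form of the HNF1 site was found for 2 of the 69 genes, against 0.47% of all genes, and a 10-letter form of the NF-kB site for 0, against 1.89%. Matches of different motifs were counted separately where they overlap; Cyp2c windows descend from one another, so their matches are not independent, and a match is a description of letters and no shown binding site.

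The 5 Cyp2b genes fell too. Cyp2b10, the enzyme by which CAR activation is usually recognised, led them. Cyp2b10 stood at 5.36, 6.16, 5.19, 6.17 and 4.13 in KO and at 10.83, 11.76, 10.31, 11.64 and 11.74 in WT. All WT arrays lay above all KO arrays; the change was -5.85 (SE 0.41; limma, adjusted p = 6.54e-07), or 57.8-fold, and KO replicate 5 was the lowest of the KO arrays. Cyp2b13, Cyp2b9 and Cyp2b23 changed by -1.17, -1.17 and -1.17 and the skin epoxygenase Cyp2b19 by -0.88 (limma, adjusted p at most 0.00261), with no overlap of groups. Their WT levels were 5.25 to 6.93, and signal from Cyp2b10 RNA on these probe sets was not tested.

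Cyp3a enzymes, the main drug-oxidising P450s of gut and liver, fell in 6 of 7 cases. Cyp3a11 stood at 4.32, 4.47, 4.65, 4.28 and 4.48 in KO and at 7.37, 11.38, 9.59, 11.20 and 11.41 in WT. KO was tight at 4.44 ± 0.15 and near background, while WT replicate 1 lay far under the other WT arrays and still above every KO array; the change was -5.74 (SE 0.66; limma, adjusted p = 4.48e-05), or 53.6-fold. Cyp3a25 stood at 3.80, 4.02, 4.31, 3.87 and 4.09 in KO and at 8.0, 9.26, 7.39, 9.62 and 9.33 in WT. The order of the WT arrays was alike, with replicates 1 and 3 lowest, and the change was -4.70 (SE 0.38; limma, adjusted p = 2.29e-06). Cyp3a13 stood at 7.20, 7.29, 7.78, 8.65 and 7.62 in KO and at 8.88, 10.30, 8.68, 10.63 and 10.32 in WT. Cyp3a13 was not near background in either group and changed by -2.05 (SE 0.41; limma, adjusted p = 0.00276); KO replicate 4 came within 0.03 of WT replicate 3.

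Cyp3a59 stood at 3.87, 3.92, 4.09, 4.06 and 3.67 in KO and at 6.40, 7.04, 5.73, 7.33 and 7.05 in WT. It changed by -2.79 (SE 0.26; limma, adjusted p = 8.28e-06). Cyp3a44 stood at 4.0, 4.34, 4.17, 3.83 and 4.26 in KO and at 5.20, 7.31, 5.74, 7.35 and 7.61 in WT. It changed by -2.52 (SE 0.42; limma, adjusted p = 0.000815), and for both genes WT replicates 1 and 3 were the lowest of WT and all KO arrays lower still. Cyp3a57 changed by -1.31 and Cyp3a16, near background in both groups, differed by -0.62, which did not pass (limma, adjusted p = 0.0527) but did without WT replicate 1 (limma, adjusted p = 0.00179).

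Among the CYP4 fatty acid hydroxylases the decrease was centred on Cyp4f genes, of which 5 of 9 fell and 1 rose. Cyp4f14 stood at 5.56, 5.41, 5.94, 6.60 and 5.34 in KO and at 10.63, 12.13, 10.97, 12.63 and 11.97 in WT. Cyp4f14, which inactivates leukotriene B4 and opens the breakdown of vitamin E, changed by -5.90 (SE 0.38; limma, adjusted p = 3.17e-07), or 59.6-fold, with all KO arrays at least 4.02 below the lowest WT array. Cyp4f40 stood at 5.84, 6.05, 5.87, 5.64 and 5.08 in KO and at 7.17, 7.99, 7.33, 9.23 and 7.82 in WT. The change was -2.21 (SE 0.34; limma, adjusted p = 0.000455), with WT replicate 4 highest. Cyp4f16 stood at 7.54, 7.19, 7.70, 7.72 and 7.68 in KO and at 8.72, 9.52, 8.71, 10.61 and 9.20 in WT. The change was -1.78 (SE 0.31; limma, adjusted p = 0.00113), and here too WT replicate 4 was highest. Cyp4f18, the leukotriene hydroxylase of neutrophils, changed by -0.94 from 7.63 ± 0.39 in WT to 6.69 ± 0.22 in KO, and Cyp4f37 by -0.86 from 7.70 ± 0.42 to 6.83 ± 0.10. Cyp4f17 went the other way, at 7.41 ± 0.45 in KO and 6.54 ± 0.23 in WT (limma, adjusted p = 0.00705), although KO replicate 2 lay below WT replicate 2.

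Cyp4f13 stood at 8.20 ± 0.54 and 8.85 ± 0.75; its difference of -0.65 had a 95% interval of -1.42 to 0.13 and did not pass. Cyp4b1 stood at 9.07, 7.26, 7.95, 8.20 and 7.42 in KO and at 7.58, 9.69, 8.78, 10.14 and 9.80 in WT. Cyp4b1, which oxidises short fatty acids and plant toxins, overlapped between the groups and its change of -1.22 did not pass (limma, adjusted p = 0.0841); without KO replicate 1 it was -1.49 and without WT replicate 1 -1.62, both past the threshold (limma, adjusted p = 0.0388 and 0.00871). Of 5 Cyp4a genes, which are textbook targets of PPARα in liver, Cyp4a32 passed at -0.64, near background in both groups, and lost its call without any 1 of 7 arrays (limma, adjusted p = 0.0509 to 0.0708): KO replicates 1 to 4 or WT replicates 2, 4 and 5. Cyp4a10 differed by -0.93 (limma, adjusted p = 0.0532), which passed without WT replicate 1, 3 or 4 (limma, adjusted p = 0.0269 to 0.0437), with differences of -1.10, -1.05 and -0.60; Cyp4a14, Cyp4a29 and Cyp4a31 differed by -0.06, 0.06 and -0.21.

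**Figure D2:**
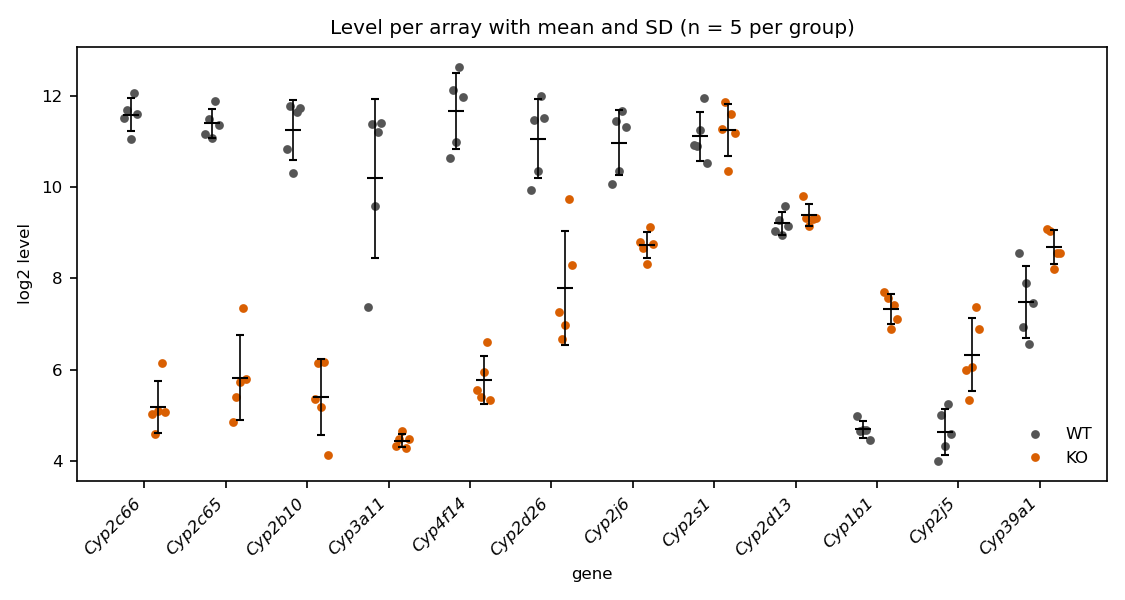
Log2 level on each array for 12 P450 genes, WT in grey and KO in orange, with the mean and SD of 5 arrays per group. Cyp2c66, Cyp2c65, Cyp2b10, Cyp3a11, Cyp4f14, Cyp2d26 and Cyp2j6 are lower in KO without overlap, Cyp2s1 and Cyp2d13 overlap, Cyp1b1 and Cyp2j5 are higher in KO without overlap, and Cyp39a1 is higher with overlap; heights of different genes are not comparable.

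Other CYP2 subfamilies went in several directions. Cyp2d26 stood at 7.26, 6.66, 6.99, 9.73 and 8.29 in KO and at 9.94, 11.48, 10.35, 11.99 and 11.51 in WT. KO replicate 4 stood within 0.22 of WT replicate 1, and the change was -3.27 (SE 0.57; limma, adjusted p = 0.00111). Cyp2d40 fell by 0.99, with 7.62 ± 0.23 in KO and 8.60 ± 0.59 in WT (limma, adjusted p = 0.0111), and its groups overlapped. The rest of this subfamily, which metabolises many plant alkaloids and drugs, did not pass: Cyp2d13 stood at 9.38 ± 0.24 and 9.20 ± 0.24, a difference with a 95% interval of -0.15 to 0.51. Cyp2d9 stood at 8.38 ± 0.28 and 8.30 ± 0.21, with an interval of -0.26 to 0.41. Cyp2d22 stood at 8.01 ± 1.15 and 7.07 ± 0.98, with a wide interval of -0.31 to 2.20. Cyp2d34 stood at 7.22 ± 0.97 and 6.83 ± 1.27 with an interval of -0.94 to 1.71, Cyp2d10 at 7.05 ± 0.40 and 6.50 ± 0.42 with one of 0.05 to 1.06, and Cyp2d12 differed by -0.24. Without KO replicate 5 or WT replicate 4, Cyp2d10 passed as higher in KO (limma, adjusted p = 0.0483 and 0.0212).

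Cyp2j enzymes make epoxides from arachidonic acid, and by over 1.5 on the log2 scale 2 of them fell and 1 rose. Cyp2j6 stood at 8.79, 8.66, 8.32, 9.13 and 8.74 in KO and at 10.07, 11.44, 10.34, 11.67 and 11.32 in WT. Cyp2j6, an enzyme known from small intestine, changed by -2.24 (SE 0.30; limma, adjusted p = 0.00014) and was not near background in KO. Cyp2j9 stood at 6.05, 4.91, 4.62, 5.74 and 4.80 in KO and at 7.72, 8.32, 7.63, 8.80 and 8.40 in WT. Cyp2j9 changed by -2.95 (SE 0.31; limma, adjusted p = 2.05e-05), without overlap. Cyp2j5 stood at 6.0, 5.33, 6.06, 7.36 and 6.89 in KO and at 4.0, 5.0, 4.32, 5.25 and 4.60 in WT. Cyp2j5, an epoxygenase of kidney and liver, was higher on every KO array than on every WT array, by 1.69 (SE 0.36; limma, adjusted p = 0.00424), though KO replicate 2 exceeded WT replicate 4 by only 0.08. Cyp2j8, near background in both groups, changed by -0.89, and Cyp2j11, Cyp2j12 and Cyp2j13 differed by -0.15 to -0.08, which did not pass.

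Cyp2u1 stood at 6.66, 7.14, 6.64, 7.02 and 7.02 in KO and at 9.37, 9.68, 8.69, 10.55 and 9.53 in WT. Cyp2u1, a fatty acid hydroxylase, changed by -2.67 (SE 0.28; limma, adjusted p = 1.91e-05), with WT replicate 4 highest and no overlap. Cyp2w1 stood at 6.41, 6.87, 6.53, 6.68 and 6.40 in KO and at 8.13, 7.94, 8.20, 8.21 and 8.29 in WT. Cyp2w1, an enzyme of the developing gut that is otherwise known from colorectal tumours, changed by -1.58 (SE 0.12; limma, adjusted p = 1.19e-06), with little spread in either group. Cyp2s1 stood at 11.28, 11.87, 10.36, 11.59 and 11.18 in KO and at 10.93, 10.90, 11.24, 11.96 and 10.52 in WT. Cyp2s1, a P450 of lining epithelia, overlapped between the groups: the difference was 0.14 with a 95% interval of -0.52 to 0.81, which leaves out changes of over 2-fold. Cyp2f2 differed by 0.78 and did not pass (limma, adjusted p = 0.206) although the groups did not overlap; KO replicate 1 stood at 8.25 and the other KO arrays at 5.71 to 5.97. The 4 Cyp2a genes and Cyp2e1, Cyp2g1, Cyp2r1, Cyp2t4 and Cyp2ab1 differed by -0.25 to 0.08 and did not pass; Cyp2r1 is the vitamin D 25-hydroxylase.

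In the CYP1 family, whose members respond to the aryl hydrocarbon receptor, 1 of 3 genes changed. Cyp1b1 stood at 7.69, 7.57, 6.89, 7.42 and 7.11 in KO and at 4.99, 4.65, 4.68, 4.68 and 4.47 in WT. Cyp1b1, which acts on polycyclic hydrocarbons and oestrogens outside the liver, was higher on all KO arrays by 2.64 (SE 0.16; limma, adjusted p = 2.22e-07), or 6.24-fold, and near background in WT, which makes the size a lower bound. Cyp1a1 stood at 4.84, 4.31, 4.55, 4.37 and 4.72 in KO and at 4.28, 4.59, 4.81, 4.97 and 5.0 in WT. Cyp1a1, the classical target of that receptor in gut, stayed near background in both groups, with a difference of -0.17 and a 95% interval of -0.52 to 0.18, and Cyp1a2 differed by -0.23.

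Of the 6 bile acid and oxysterol enzymes of families CYP7 to CYP46, 1 passed. Cyp39a1 stood at 9.07, 9.04, 8.20, 8.55 and 8.56 in KO and at 8.55, 6.93, 7.91, 6.56 and 7.47 in WT. Cyp39a1, which hydroxylates 24-hydroxycholesterol on the way to bile acids, was higher in KO by 1.202 (SE 0.34; limma, adjusted p = 0.0195), though WT replicate 1 lay among the KO arrays; without WT replicate 2 it did not pass (limma, adjusted p = 0.0537). Cyp27a1 stood at 4.84, 4.86, 4.94, 5.59 and 4.63 in KO and at 5.17, 4.97, 4.60, 4.45 and 4.82 in WT. Cyp27a1, the mitochondrial sterol 27-hydroxylase, was near background in both groups and differed by 0.17. Cyp7b1 stood at 5.13, 5.46, 4.74, 4.92 and 4.69 in KO and at 5.15, 5.10, 4.90, 5.12 and 5.02 in WT. Cyp7b1, the oxysterol 7-hydroxylase, differed by -0.07, with overlap. Cyp8b1 stood at 4.23, 4.40, 4.37, 4.31 and 4.49 in KO and at 4.32, 4.58, 4.58, 4.27 and 4.57 in WT. Cyp8b1, which makes cholic acid, differed by -0.10, and Cyp7a1, the first enzyme of the main hepatic route, and the neuronal cholesterol hydroxylase Cyp46a1 differed by -0.14 and 0.22; none of these 5 passed.

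Of the 5 steroid hormone enzymes of families CYP11, CYP17 and CYP21, 1 passed. Cyp11a1 stood at 5.61, 5.65, 5.49, 5.28 and 5.69 in KO and at 5.02, 4.99, 5.06, 5.09 and 4.87 in WT. Cyp11a1, which cuts the side chain of cholesterol in the first step of steroid synthesis and is made by intestinal epithelium, was higher on all KO arrays by 0.54 (SE 0.10; limma, adjusted p = 0.0021), which is less than the largest difference among the spike-in controls. Cyp21a1 differed by 1.07 (limma, adjusted p = 0.0529) and spanned 5.63 to 8.07 in KO; it passed without KO replicate 2, 3 or 5 (limma, adjusted p = 0.0226 to 0.0407), and its difference without replicate 5, the highest, was 0.67. Cyp11b1, Cyp11b2 and Cyp17a1 differed by -0.13, -0.07 and 0.03 and did not pass. Cyp20a1, an orphan enzyme without an agreed substrate, rose by 0.71 from 8.01 ± 0.50 to 8.72 ± 0.19 (limma, adjusted p = 0.0285), but its call was lost when KO replicate 3, KO replicate 4 or WT replicate 2 was left out (limma, adjusted p = 0.0513 to 0.0661).

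Vitamin D and retinoic acid enzymes did not pass. Cyp24a1 stood at 6.06, 6.28, 6.22, 5.90 and 6.05 in KO and at 5.92, 6.08, 5.97, 6.17 and 6.26 in WT. Cyp24a1, which breaks down active vitamin D and is the usual readout of its receptor, differed by 0.02 with a 95% interval of -0.21 to 0.26. Cyp27b1 stood at 5.82, 5.80, 5.38, 5.70 and 5.58 in KO and at 5.76, 5.46, 5.45, 5.78 and 5.66 in WT. Cyp27b1, which makes active vitamin D, differed by 0.03 (-0.23 to 0.29). Cyp26a1 stood at 5.08, 5.66, 5.19, 5.31 and 5.38 in KO and at 5.48, 5.27, 4.91, 5.12 and 5.31 in WT. Cyp26a1, which clears retinoic acid, differed by 0.11 (-0.19 to 0.41). Cyp26b1 stood at 6.16, 5.90, 5.76, 5.83 and 6.42 in KO and at 6.06, 6.22, 5.98, 6.11 and 6.05 in WT. Cyp26b1 differed by -0.07 (-0.36 to 0.22) and Cyp26c1 by -0.10, and all these genes overlapped between the groups. For the genes named with a 95% interval, it leaves out signal changes of over 2-fold. Group means of these genes were 5.22 to 6.10, below the negative controls' 95th percentiles of 7.17 to 7.77. How far signal follows RNA at such levels was not tested.

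The genes that fell were also alike in how they varied among the WT arrays. WT replicates 1 and 3 were both below the other 3 WT arrays for 35 of the 38 P450 genes that fell, or 92.1%, and for 31.8% of all 2296 probe sets that fell; this order was noticed in these data and is a description, and Cyp2c55, Cyp2c70 and Cyp2w1 departed from it. WT replicate 4 was the highest for 24 of the 38, or 63.2%, and for 46.3% of all probe sets that fell. Absorptive enterocyte markers had the same order: the log2 of their summed signal was 14.36, 15.65, 14.82, 15.93 and 15.53 in WT replicates 1 to 5 and 10.36, 10.74, 10.81, 10.85 and 10.63 in KO. The 11 enterocyte markers changed by between -7.22 for Sis and -1.03 for Vil1, and their part in the lower P450 signal was not tested. In bulk samples, fewer cells of a type and less RNA per cell cannot be told apart. Of the other epithelial types, 5 of 6 Paneth and 5 of 5 enteroendocrine markers fell, and the remaining Paneth marker, the protease Mmp7, rose by 3.05 (limma, adjusted p = 1.48e-06). Of the goblet cell markers 4 of 6 fell, of the stem cell markers 3 of 5, and of the 5 tuft cell markers Dclk1 rose by 1.29 (limma, adjusted p = 0.0217) and the others did not pass. Over the 26 markers of hepatocytes and non-epithelial cells, 4 rose, 3 fell and 19 did not pass. Thus 26.9% of them passed, near the 26.7% of all probe sets. For all marker counts here, 11.7% of all probe sets fell and 15.0% rose. Of 5 markers of hepatocytes, which are rich in P450s, 2 fell, Alb by 1.17 and Serpina1a by 0.44, with a log2 summed signal of 8.38 to 9.55 in KO and 8.87 to 9.86 in WT. Of 5 immune markers Csf1r and Itgam rose, by 1.53 and 1.56, and the pan-leukocyte gene Ptprc did not pass (-0.21), with a log2 summed signal of 8.20 to 9.21 in KO and 7.53 to 7.74 in WT, and their part in the higher Cyp1b1 was not tested. Among 8 mesenchymal markers, Lum fell by 0.39 and the others did not pass, and Col3a1, Dcn and Lum were near background in both groups; of 3 neural markers Ret (0.90) and S100b (0.46) rose, and 5 of 5 endothelial ones did not pass.

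**Figure D3:**
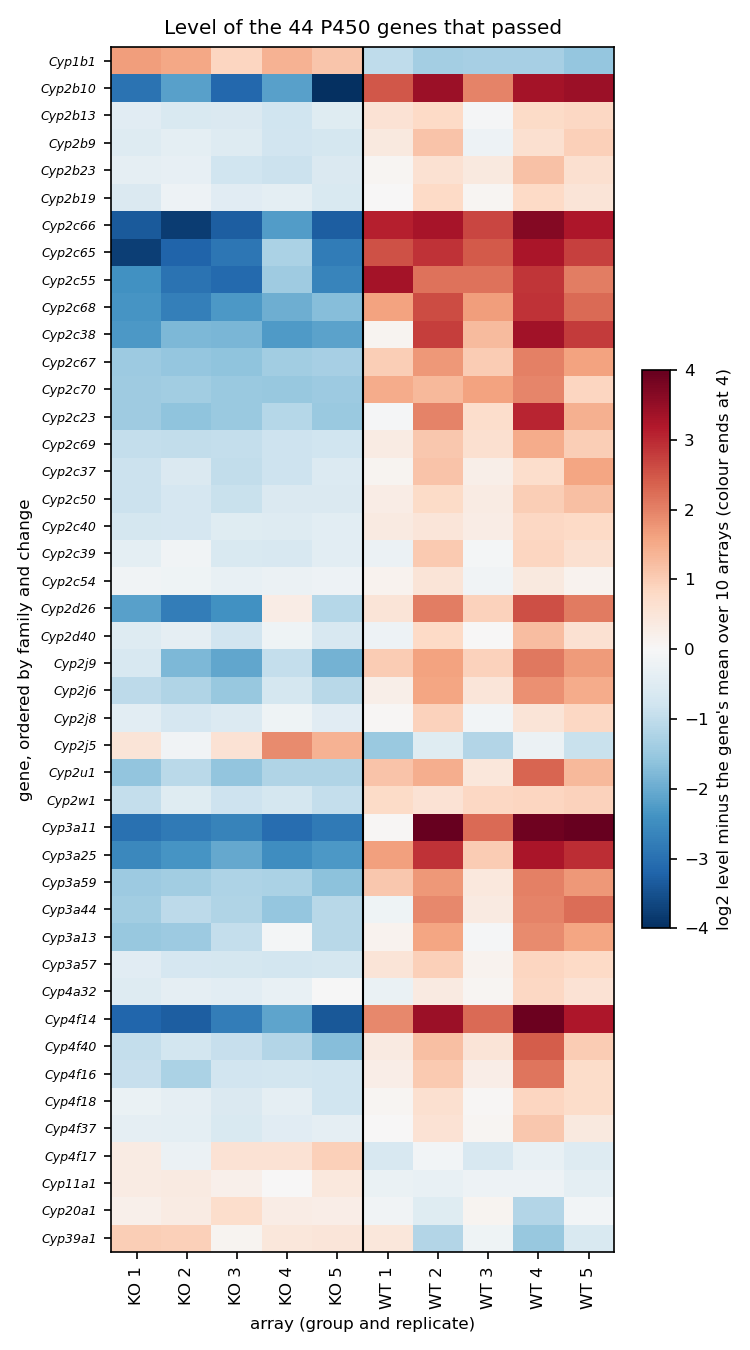
Log2 level of the 44 P450 genes that passed, each minus its mean over the 10 arrays, with KO replicates on the left of the line and WT replicates on the right; red is above and blue below the gene's mean, with colours ending at 4. Most of the 38 genes that fell are darker red in WT replicates 2, 4 and 5 than in WT 1 and 3 (Cyp2c55, Cyp2c70 and Cyp2w1 are exceptions), and the 6 that rose are mostly red in KO.

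P450 genes lie in runs of related copies, and counts were taken run by run. Taking neighbouring members with at most 5 other measured genes between them, in RefSeq order, gave 8 runs of 3 or more genes with 65 members, of which 33 fell and 3 rose. The 61 other named genes within these runs or among the 3 nearest on each side counted 6 that fell, 9 that rose and 46 that did not pass. Of all probe sets 11.7% fell and 15.0% rose, shares near those of these 61 genes. On chromosome 19 all 13 measured Cyp2c genes from Cyp2c55 to Cyp2c70 fell, with Cyp2c23 apart from them. Of 6 flanking genes 1 fell, Aldh18a1 (-1.51), an enzyme of proline synthesis. On chromosome 5, 5 of the 6 Cyp3a genes fell, and the 6 flanking genes did not pass. On chromosome 7 the 5 Cyp2b genes fell, while Cyp2s1, the Cyp2a genes and Cyp2f2, Cyp2g1 and Cyp2t4 around and between them did not pass. On chromosome 15 the 2 Cyp2d genes that fell, Cyp2d40 and Cyp2d26, stand next to each other at the end of the run. On chromosome 17 Cyp4f17, which rose, is the direct neighbour of Cyp4f16, which fell, and on chromosome 4 Cyp2j5, which rose, is that of Cyp2j9, which fell.

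**Figure D4:**
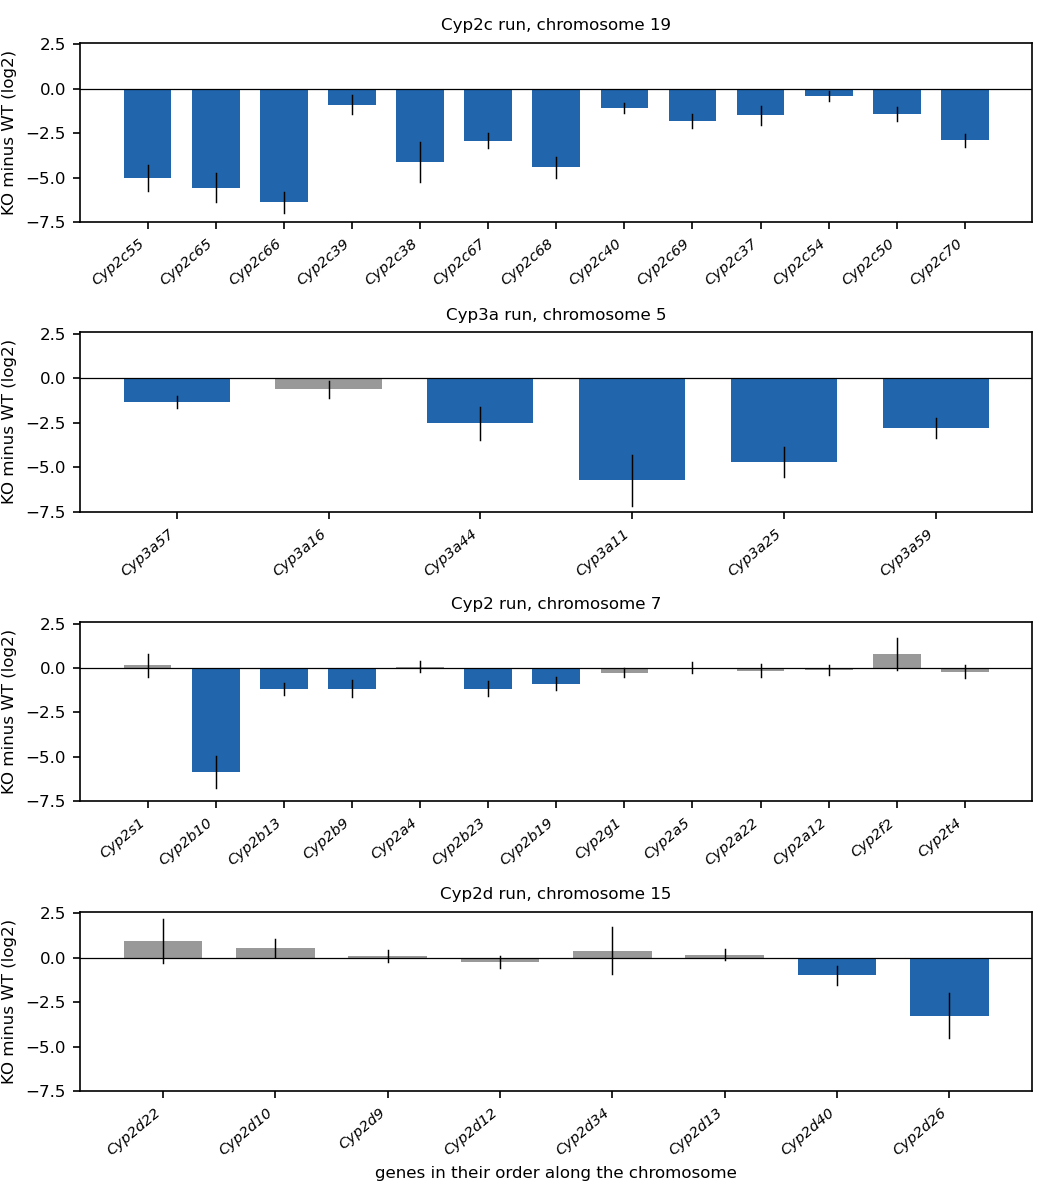
Change (KO minus WT, log2) of P450 genes in their order along 4 chromosomes, spaced evenly; bars are limma estimates and thin lines 95% confidence intervals, blue for genes that fell and grey for genes that did not pass. The Cyp2c and Cyp3a runs point down throughout, while the blue bars are the Cyp2b genes in the chromosome 7 run and Cyp2d40 and Cyp2d26 in the Cyp2d run.

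Genes that serve or switch on P450s were counted from 5 lists of known function, with 58 of 67 genes measured; 22 fell, 7 rose and 29 did not pass, with a median change of -0.27, where 26.7% of all probe sets passed. Among 9 xenobiotic receptors and partners, 2 fell, 1 rose and 6 did not pass, so 33.3% passed. Those that fell were the receptors of Cyp3a and Cyp2b genes. Nr1i2 stood at 5.62, 5.28, 5.06, 6.05 and 5.91 in KO and at 8.39, 9.06, 8.67, 9.23 and 8.94 in WT. Nr1i2, which encodes PXR, changed by -3.28 (SE 0.21; limma, adjusted p = 3.7e-07), without overlap. Nr1i3 stood at 6.32, 6.35, 6.36, 6.02 and 6.59 in KO and at 8.96, 9.28, 8.29, 10.34 and 8.92 in WT. Nr1i3, which encodes CAR, changed by -2.83 (SE 0.30; limma, adjusted p = 2.43e-05), also without overlap. Ahr stood at 9.46, 9.37, 9.14, 9.39 and 10.000 in KO and at 7.41, 7.81, 7.72, 8.01 and 7.78 in WT. The aryl hydrocarbon receptor gene Ahr, by contrast, was higher on all KO arrays, by 1.73 (SE 0.16; limma, adjusted p = 9.16e-06), beside higher Cyp1b1 and no passing change of Cyp1a1 or Cyp1a2. Its repressor Ahrr (-0.04) and its partner Arnt (-0.13) did not pass.

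Among 15 receptors for lipids, bile acids and vitamins A and D, 7 fell: Ppara (-2.93), Nr1h3 (-1.76), Nr5a2 (-1.69), Nr1h4 (-1.69), Vdr (-1.56), Nr3c1 (-0.93) and Esr1 (-0.34). For the counts of this paragraph, 11.7% of all probe sets fell and 15.0% rose. Ppara encodes the fatty acid receptor that drives Cyp4a genes in liver, Nr1h4 the bile acid receptor FXR, and Vdr the vitamin D receptor; the retinoic acid receptor Rarb rose by 1.44, and Rxra, the common partner of these receptors, differed by -0.33 and did not pass. Of 14 enterocyte transcription factors 9 fell: Hnf4g (-4.55), Gata4 (-3.47), Cdx1 (-3.01), Gata5 (-2.66), Cdx2 (-2.16), Cebpa (-1.34), Hnf4a (-1.08), Foxa3 (-0.95) and Gata6 (-0.54). Hnf4g stood at 6.46, 6.68, 5.97, 7.92 and 6.50 in KO and at 10.73, 11.64, 10.76, 11.96 and 11.20 in WT. Hnf4g was the most reduced of all 58 listed genes in this fit, and its groups did not overlap, whereas Hnf4a, its close relative, stood at 10.23 ± 0.27 in KO against 11.31 ± 0.16 in WT. Onecut2 (1.46), Foxa2 (1.32) and Cebpb (0.31) rose. Esr1, Gata6 and Cebpb, with small changes, and Cyb5r1 below lost their calls without any 1 of 5 to 9 arrays (limma, adjusted p = 0.0521 to 0.0989).

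Among genes that supply P450s with electrons and with haem, 44.4% and 18.2% passed in turn, where 26.7% of all probe sets did. Of 9 electron transfer genes 3 fell, the membrane-bound P450 partner Pgrmc2 (-1.37) and the cytochrome b5 genes Cyb5b (-0.94) and Cyb5a (-0.88), Cyb5r1 rose by 0.43, and 5 did not pass. Of 11 haem genes, Cpox, an enzyme late in haem synthesis, fell by 1.59 and Hmox1, which breaks haem down under stress, rose by 2.0 (limma, adjusted p = 7.69e-05), and 9 did not pass, among them Alas1, the rate-setting enzyme (-0.24; limma, adjusted p = 0.275), which passed without WT replicate 3 (limma, adjusted p = 0.0205), at -0.38.

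**Figure D5:**
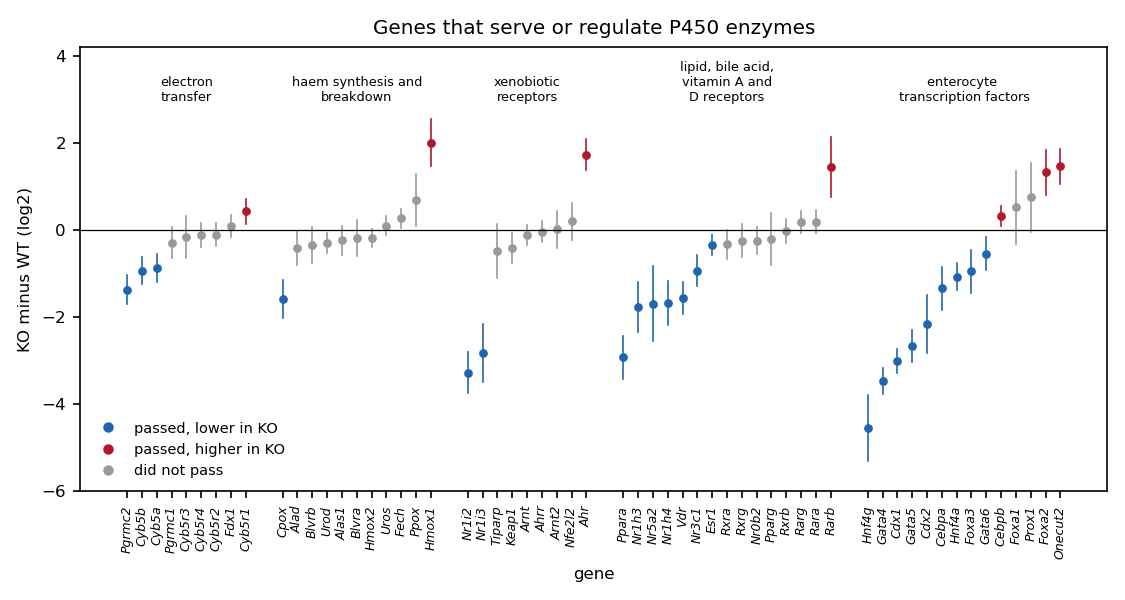
Change (KO minus WT, log2) of 58 genes from 5 lists of P450 partners and regulators, with 95% confidence intervals of the limma fit; blue genes fell, red genes rose and grey genes did not pass. The largest decreases are in the receptor and transcription factor lists, from Hnf4g (-4.55) and Gata4 (-3.47) to Nr1i2 (-3.28), and the largest increase is Hmox1 (2.0).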

How the data were processed

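Total RNA of 10 organoid samples, 5 KO and 5 WT, was hybridised to 1 Affymetrix array each after biotin labelling of 100 ng, per the labels' protocols. The values deposited by the authors are RMA levels on the log2 scale, per the submitters' processing notes; a genome build was not given in the sources used here. All 28846 probe sets, 6640 of them controls, were fitted with limma 3.58.1 (R 4.3.3) as KO against WT with moderated variances and no filter on low values. Benjamini-Hochberg adjustment ran over the 19572 probe sets that have 1 symbol, with the brightest on average taken where a gene has several. Array number limits the precision: the median SD of a P450 gene was 0.21 in KO and 0.36 in WT. Every member may be named; values per array are given for those that passed with a change of at least 1.5 and for a set of textbook members and regulators, and means for those with a level of at least 7. The members, lists, motifs and rules were chosen with earlier results of these data known. RefSeq (GRCm38.p6) gave gene order and promoter letters; all 90 members matched it by identifier. Alternatives changed the normalization, filter, variance model, weights, threshold, adjustment, probe set rule and arrays used. Scripts were tested on simulated data (Python 3.11.15, pandas 2.3.3, numpy 2.4.6, matplotlib 3.10.9).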

Additional observations from a re-analysis of the deposited data

Results flagged for a closer look

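In 10 of 248 sets of 5 values, 1 array stood apart from the other 4 by Dixon's ratio (its gap to the nearest value over the range), 7 of them for P450 genes; chance alone marks about 1 in 20 such sets. Cyp2f2, a P450 known from airway cells, stood at 8.25 in KO replicate 1 and at 5.71 to 5.97 on the other 4 KO arrays. Cyp2ab1 stood at 6.55 in KO replicate 1 and at 5.82 to 5.92 on the other 4 KO arrays. Cyp2d13 stood at 9.80 in KO replicate 1 and at 9.15 to 9.33 on the other 4 KO arrays. Cyp2d12 stood at 5.89 in KO replicate 1 and at 5.48 to 5.60 on the other 4 KO arrays. Cyp11b1 stood at 5.31 in KO replicate 1 and at 4.86 to 4.98 on the other 4 KO arrays. Cyp3a57 stood at 4.04 in KO replicate 1 and at 3.75 to 3.81 on the other 4 KO arrays. KO replicate 1 was thus the array that stood apart in 6 of the 7 P450 cases. Cyp20a1 stood at 9.06 in KO replicate 3 and at 8.56 to 8.68 on the other 4 KO arrays. The knocked-out gene Nfkbia stood at 9.85 in WT replicate 5 and at 8.95 to 9.19 on the other 4 WT arrays. The oestrogen receptor gene Esr1 stood at 6.17 in WT replicate 5 and at 6.42 to 6.47 on the other 4 WT arrays. The transcription factor gene Cebpb stood at 8.36 in KO replicate 2 and at 7.95 to 8.06 on the other 4 KO arrays.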

How the results depend on the processing

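37 of the 44 P450 genes that passed kept their call and direction under every alternative that tested them, and none of the 123 named genes reversed a called direction. The 7 that lost a call under at least 1 alternative were Cyp2c39, Cyp2c54, Cyp2d40, Cyp4a32, Cyp11a1, Cyp20a1 and Cyp39a1, and 5 of the 46 others gained one. Without 1 array at a time, 36 to 41 P450 genes fell and 4 to 8 rose, CYP2 counts of change were 26 to 28, CYP3 6 to 7, CYP4 6 to 9, families CYP7 to CYP46 1 to 4 (1 without WT replicate 2), partners and regulators 25 to 28 and all probe sets 4344 to 5187. With limma's treat and a limit of 1.2-fold, 3 P450 genes rose, 35 fell and 0 of families CYP7 to CYP46 changed (4 at an unadjusted p under 0.05), with 3034 probe sets in all; at a threshold of 0.01 the last family group had 1 and all probe sets 3451. With the replicate block, 39 P450 genes fell, 6 rose and 4913 probe sets changed. Deviations of same-numbered arrays correlated at -0.08 to 0.35. KO replicates 3 and 4 correlated best with the WT array of their own number, and the other KO replicates did not. Such correlations cannot tell if same-numbered samples were paired. Leaving out the dimmest probe sets left 69 P450 genes, of which 33 fell and 7 rose. Signal over background limits the 28 genes near background in both groups, for which a missing call is no sign of equal RNA.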

Other observations

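Outside the rule stood 2 genes with a split among the KO arrays. Cyp4a12a stood at 4.92, 4.42, 5.45, 10.43 and 10.44 in KO and at 4.15, 4.01, 4.30, 4.41 and 4.72 in WT. KO replicates 4 and 5 were thus far above every other array, the difference of 2.81 did not pass (limma, adjusted p = 0.0958), and the near copy Cyp4a12b had the same split. Cyp4a12b stood at 5.01, 4.32, 6.14, 10.21 and 10.06 in KO and at 4.81, 4.57, 4.36, 4.64 and 4.99 in WT. Both encode fatty acid hydroxylases known from kidney. Beside this, the log2 of the summed goblet cell marker signal was 12.33, 12.50, 11.42, 14.18 and 13.13 in KO replicates 1 to 5, highest in replicates 4 and 5; its part in the split was not tested. Cyp3a41a and Cyp3a41b, near copies that also fell outside the rule, changed by -1.37 and -2.04 (limma, adjusted p = 0.00903 and 0.00256), and the cholesterol synthesis enzyme Cyp51 by -0.72.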
